A study of Mus musculus with 8 samples.

Results

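The mitochondrial protein import machinery is described here as 34 of the 18193 genes measured in C2C12 myotubes, which are muscle fibre cells made in culture from a mouse myoblast line. The members were chosen by name: every gene with a symbol that starts with Timm or Tomm, plus Samm50, Mtx1, Mtx2, Grpel1, Grpel2, Dnajc19, Pam16, Chchd4, Gfer, Pmpca and Pmpcb. Of the 37 symbols that met this rule, Dnajc19, Tomm5 and Tomm6 had no probe set of their own on the array and were not analysed. Each gene was read from the probe set with its highest mean log2 intensity, so 15 members had a single probe set and 19 were chosen from several.

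Myoblasts had been differentiated for 3 days in 2% serum, infected with an adenovirus and grown for 3 more days. The virus expressed green fluorescent protein (GFP) alone, or PGC-1α tagged with it (GFP-PGC-1α), and each infection was done without or with 100 µM deferoxamine (DFO), a chelator that binds iron. There were thus 4 groups of 2 arrays each, called GFP and PGC-1α without DFO, and GFP plus DFO or PGC-1α plus DFO with it. All of them carried an adenovirus and GFP, so no group shows uninfected myotubes. PGC-1α is a transcriptional coactivator known for raising mitochondrial gene expression in muscle, and here it came from a virus and not from its own gene.

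Most mitochondrial proteins are made in the cytosol and must be brought in. The TOM complex is the entry gate of the outer membrane, the SAM complex folds barrel-shaped proteins into that membrane, and the small TIM chaperones carry water-shy proteins across the intermembrane space. The TIM23 channel with its PAM motor draws proteins with a cleavable presequence into the matrix, the TIM22 complex inserts carrier proteins into the inner membrane, and the processing peptidase cuts the presequence off.

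Median intensity was alike on all arrays, while measures of RNA intactness and the control RNA differed between groups. It was 59.5 to 62.8 units per array, and the correlation of replicate arrays of a group was 0.942 to 0.962. The ratio of the 5′ to the 3′ probe set of beta-actin, a sign of RNA intactness, was 0.897 to 0.921 without DFO, 0.868 and 0.859 with GFP plus DFO, and 0.753 and 0.811 with PGC-1α plus DFO. The same ratio of Gapdh was 1.16 to 1.20 without DFO, 1.12 and 1.12 with GFP plus DFO, and 1.10 and 1.09 with PGC-1α plus DFO. The mean log2 intensity of the bacterial control RNA was 7.82 to 8.14 without DFO, 8.16 and 7.91 with GFP plus DFO, and 7.60 and 7.47 with PGC-1α plus DFO. Ppargc1a, the gene of PGC-1α, read 28.6 and 37.3 with GFP, 7211 and 7036 with PGC-1α, 26.6 and 88.1 with GFP plus DFO, and 7930.3 and 7710.4 with PGC-1α plus DFO. The construct groups were therefore far above both GFP groups on every array, as the labels say. Of 10 myotube markers measured (Myog, Ckm, Acta1, Mylpf, Myh3, Tnnt3, Actn2, Chrng, Des and Myl1), none were at the lowest value of 1 on any array, and their summed intensity was 66767 to 69786 with GFP and 58274 to 58442 with PGC-1α. It was 31594 to 32004 with GFP plus DFO and 21035 to 22085 with PGC-1α plus DFO, and DFO lowered 8 of the 10 in GFP cells and 9 of the 10 in PGC-1α cells. The construct lowered 3 of the 10 without DFO, and with DFO it lowered 7 and raised 1. The summed intensity of 9 myoblast markers (Pax7, Myf5, Id1, Id2, Id3, Ccnd1, Cd34, Spry1 and Hes1), none at 1, was 2356 to 2563 with GFP, 3211 to 3221 with PGC-1α, 2627 to 2802 with GFP plus DFO and 3145 to 3594 with PGC-1α plus DFO. The sum hides members that went opposite ways: DFO raised 4 and lowered 3 in GFP cells and raised 3 and lowered 3 in PGC-1α cells, and the construct raised 2 without DFO and raised 3 and lowered 2 with it. The part that these markers, the 5′ to 3′ ratios and the control RNA play in the DFO and construct results that follow was not tested. In a bulk sample, fewer cells of a type and less RNA per cell cannot be told apart.

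In general, the construct raised the import machinery and DFO lowered part of it. Without DFO, PGC-1α gave 16 members higher and 2 lower, against 4.96% and 4.77% of all genes called higher and lower. With DFO it gave 19 higher and 3 lower, against 6.93% and 12%. DFO lowered 13 members and raised 1 in GFP cells, against 12.5% and 11.8% of all genes. In PGC-1α cells it lowered 8 and raised 1, against 14.2% and 11.4%. Levels are given as linear intensity units on each array, and changes as log2 differences between group means. A gene was called when its limma p, adjusted over all 18193 genes by Benjamini-Hochberg, was below 0.05. The median log2 change of the 34 members was 0.50 and 0.45 with the construct, where that of all genes was -0.084 and -0.049, and -0.28 and -0.098 with DFO, where that of all genes was -0.017 and 0.0090. On the probe sets used, the 8 members called in none of the comparisons were Gfer, Mtx1, Timm8a2, Timmdc1, Tomm20, Tomm20l, Tomm7 and Tomm70a.

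**Figure D1:**
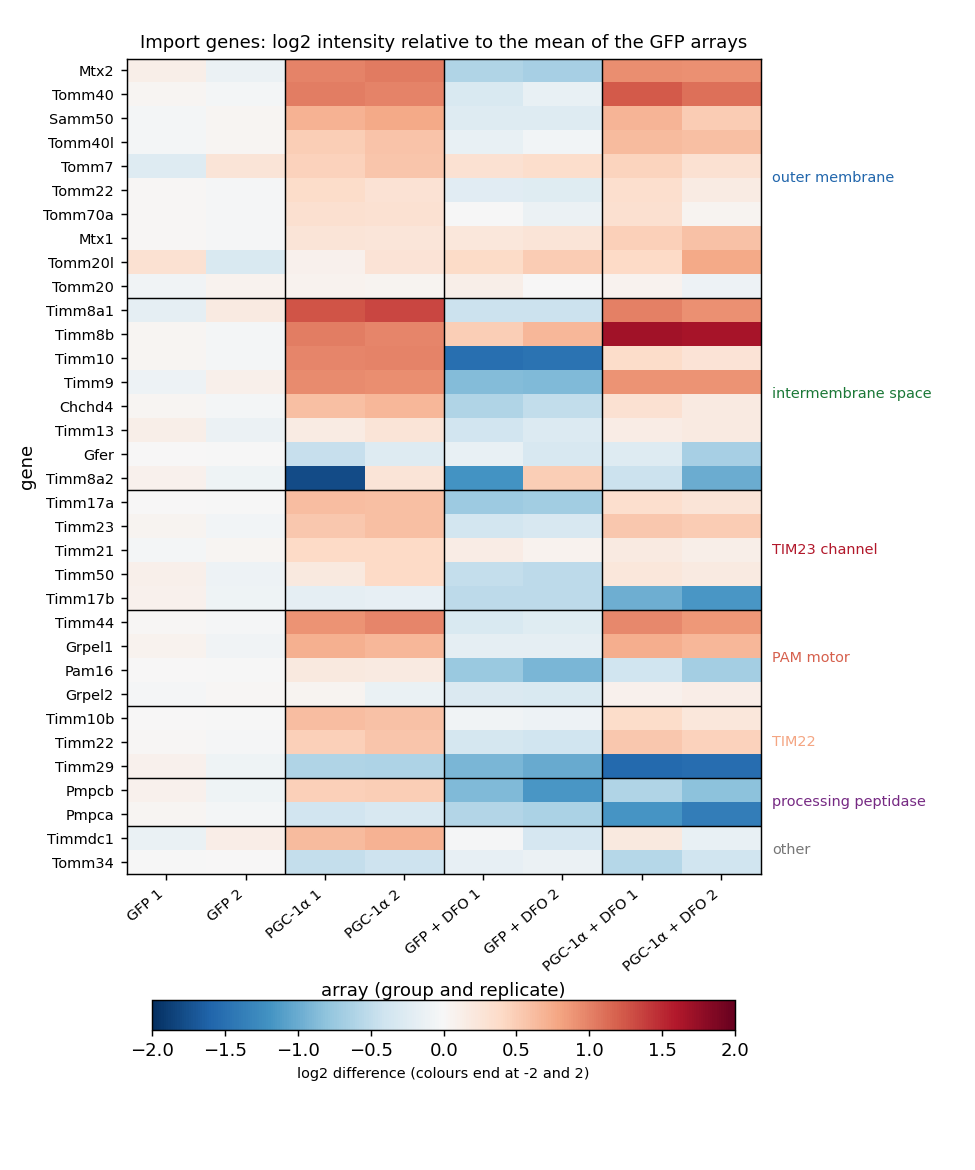
Heat map of log2 intensity of the 34 import genes (rows, ordered by part) on the 8 arrays (columns), relative to the mean of the 2 GFP arrays, with colours that end at -2 and 2. The PGC-1α columns are mostly red, with 16 members called higher, and the GFP plus DFO columns are mostly blue, with 13 called lower.

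The scale of the arrays bears on these counts. Rescaled to the 27 probe sets of bacterial control RNA, the median of all genes moved to 0.13 and 0.45 for the construct without and with DFO, and to 0.046 and 0.36 for DFO in GFP and PGC-1α cells. The share of all calls that were higher then went from 51.0%, 36.6%, 48.5% and 44.6% to 85.6%, 89.3%, 54.5% and 76.0%, in that order. In the same order, genes called in either direction numbered 1770, 3446, 4409 and 4662 in the main fit. On the control RNA scale they numbered 880, 3410, 2920 and 4350. On that scale the construct gave 13 members higher and 0 lower without DFO and 25 higher and 0 lower with it, by limma, with 1 and 0 lower at an unadjusted p below 0.05. The rise from 19 to 25 members higher under DFO thus went with a shift of all genes towards higher calls on that scale. DFO gave 0 higher (1 at an unadjusted p below 0.05) and 6 lower in GFP cells and 2 higher and 4 lower in PGC-1α cells, and the median of the members turned from -0.098 to 0.26 in PGC-1α cells.

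The promoter windows of 4 members are shown because these genes moved with the construct and carry letters of factors that work with PGC-1α or drive mitochondrial genes. The windows run from 250 bases before to 50 after the start in RefSeq (GRCm38.p6), and 30 of the 34 members have one. Timm44 and Timm23 lie on the minus strand at chr8:4275856-4276155 and chr14:32201842-32202141, and Timm8b and Timm10 on the plus strand at chr9:50603651-50603950 and chr2:84826771-84827070. Capitals mark, on either strand, AAGGTCA (bound by oestrogen-related receptors, ERR), CCGGAAG (GABPA), GCGCANGCG (NRF1) and AAGATGGCG (YY1). Each sequence reads 5′ to 3′ along its gene.
Timm44: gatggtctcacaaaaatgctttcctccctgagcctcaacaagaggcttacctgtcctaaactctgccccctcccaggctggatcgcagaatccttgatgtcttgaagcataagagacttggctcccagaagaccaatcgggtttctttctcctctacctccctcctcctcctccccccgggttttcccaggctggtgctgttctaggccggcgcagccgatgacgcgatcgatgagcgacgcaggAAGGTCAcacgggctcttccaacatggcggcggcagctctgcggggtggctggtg
Timm23: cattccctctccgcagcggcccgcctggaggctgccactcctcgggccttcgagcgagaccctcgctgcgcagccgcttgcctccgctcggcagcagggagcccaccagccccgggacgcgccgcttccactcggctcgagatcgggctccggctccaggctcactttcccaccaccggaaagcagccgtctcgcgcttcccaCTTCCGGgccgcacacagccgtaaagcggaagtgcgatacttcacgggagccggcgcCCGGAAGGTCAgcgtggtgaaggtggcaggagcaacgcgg
Timm8b: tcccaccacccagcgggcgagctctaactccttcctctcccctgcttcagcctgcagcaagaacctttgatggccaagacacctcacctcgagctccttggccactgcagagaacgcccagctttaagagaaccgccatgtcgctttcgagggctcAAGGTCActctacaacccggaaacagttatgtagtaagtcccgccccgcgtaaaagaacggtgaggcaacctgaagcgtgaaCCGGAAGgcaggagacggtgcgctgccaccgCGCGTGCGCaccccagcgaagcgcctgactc
Timm10: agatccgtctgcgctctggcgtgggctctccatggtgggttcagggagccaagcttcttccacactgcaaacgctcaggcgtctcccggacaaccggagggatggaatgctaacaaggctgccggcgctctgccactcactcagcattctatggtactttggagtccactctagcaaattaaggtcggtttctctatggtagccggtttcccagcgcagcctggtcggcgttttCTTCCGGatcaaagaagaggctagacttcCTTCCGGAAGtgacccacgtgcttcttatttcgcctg
The ERR letters begin 5 bases before the start in Timm44, 94 before it in Timm8b and 14 after it in Timm23, where they overlap a GABPA match. The windows of Timm44, Timm23 and Timm8b are the only 3 of the 30 that hold the ERR letters (10% of members, 4.61% of the 14452 array genes with a window), and all 3 genes rose with the construct without and with DFO. They were chosen for display after these values were known. CCGGAAG stood in 15 of the 30 (50% against 15.0% of array genes), with 3 matches in Timm10, of which 2 overlap. It was in 6 of the 14 windows of members called higher with the construct in both comparisons and in 9 of the other 16. The NRF1 letters stood in 5 (16.7% against 11.4%) and the YY1 letters in 2 (6.67% against 2.53%). With the last letter of each motif added, as first planned, these came to 4 (13.3% against 8.61%) and 2 (6.67% against 1.63%). ACGTG, the core shared by hypoxia-inducible factor sites and the E-box, stood in 8 (26.7% against 26.1%), and CACGTG, which contains it, in 5 (16.7% against 10.2%). A match of letters is a description of these windows and not a binding site.

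In the TOM complex, the channel gene moved and the main receptor did not pass the test. Tomm40 encodes the pore through which nearly all imported proteins enter, and its intensity was 550.2 and 527 with GFP, 1089 and 1067 with PGC-1α, 438 and 488 with GFP plus DFO, and 1260.3 and 1158 with PGC-1α plus DFO. Both construct groups were above both GFP groups, with no overlap. The log2 change with the construct was 1.00 ± 0.097 (SE, limma adjusted p = 0.00656) without DFO and 1.39 ± 0.097 (SE, limma adjusted p = 0.00156) with it. DFO gave -0.22 ± 0.097 (SE, limma adjusted p = 0.18) in GFP cells and 0.16 ± 0.097 (SE, limma adjusted p = 0.29) in PGC-1α cells, and neither passed. Tomm40l, a second pore gene of the same family, read 218 and 231 with GFP, 315 and 335 with PGC-1α, 202 and 217 with GFP plus DFO, and 348 and 341 with PGC-1α plus DFO. It too was higher with the construct, by 0.53 ± 0.088 (SE, limma adjusted p = 0.025) without DFO and 0.72 ± 0.088 (SE, limma adjusted p = 0.0063) with it.

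Tomm20, the receptor that first meets presequences, read 4480.2 and 4989 with GFP, 4965 and 4921 with PGC-1α, 5138 and 4759 with GFP plus DFO, and 4985 and 4407 with PGC-1α plus DFO. The groups overlapped, with log2 differences of 0.064 ± 0.11 (SE, limma adjusted p = 0.757) and -0.077 ± 0.11 (SE, limma adjusted p = 0.692) for the construct without and with DFO, and of 0.065 ± 0.11 and -0.077 ± 0.11 (SE) for DFO in GFP and PGC-1α cells. Of the 6 probe sets of Tomm20, 1 dim set was called, at -0.99 with DFO in PGC-1α cells. Tomm22, the receptor that ties the complex together, read 1475 and 1434 with GFP, 1883 and 1768 with PGC-1α, 1243 and 1229 with GFP plus DFO, and 1828 and 1628 with PGC-1α plus DFO. The construct raised it with DFO by 0.48 ± 0.094 (SE, limma adjusted p = 0.0252), and its change without DFO was 0.33 ± 0.094 (SE, limma adjusted p = 0.0965). Tomm70a, the receptor for carrier proteins, read 1015 and 988 with GFP, 1254 and 1239.9 with PGC-1α, 998 and 928 with GFP plus DFO, and 1245 and 1043 with PGC-1α plus DFO, and gave 0.32 ± 0.11 (SE, limma adjusted p = 0.147) without DFO and 0.24 ± 0.11 (SE, limma adjusted p = 0.212) with it. Tomm7, a small subunit that tunes assembly of the pore, gave 0.51 ± 0.18 (SE, limma adjusted p = 0.146) and 0.045 ± 0.18 (SE, limma adjusted p = 0.906). Tomm20l, a relative of Tomm20, was dim, at 27.5 to 57.4 units over the 8 arrays, and passed no test. Across the 7 TOM genes, 2 rose with the construct without DFO and 3 with it, and limma called 0 of the 7 with DFO in either kind of cell, with 0 at an unadjusted p below 0.05.

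The SAM genes rose with the construct in 2 of 3 cases. Samm50, the core that folds barrel proteins into the outer membrane, read 1734 and 1820.0 with GFP, 2882 and 3019.6 with PGC-1α, 1479.7 and 1491 with GFP plus DFO, and 2860.5 and 2538 with PGC-1α plus DFO. Its change with the construct was 0.73 ± 0.095 (SE, limma adjusted p = 0.0136) without DFO and 0.86 ± 0.095 (SE, limma adjusted p = 0.00496) with it, and the construct arrays did not overlap the GFP arrays. Mtx2, a metaxin that works with Samm50, read 1283 and 1086 with GFP, 2344 and 2439 with PGC-1α, 775 and 747 with GFP plus DFO, and 2245 and 2219 with PGC-1α plus DFO. It rose by 1.02 ± 0.11 (SE, limma adjusted p = 0.0079) without DFO and by 1.55 ± 0.11 (SE, limma adjusted p = 0.00148) with it, and fell with DFO in GFP cells by 0.63 ± 0.11 (SE, limma adjusted p = 0.0117), whereas DFO in PGC-1α cells gave -0.099 ± 0.11 (SE, limma adjusted p = 0.562). Mtx1, the partner metaxin, gave 0.25 ± 0.083 (SE, limma adjusted p = 0.127) and 0.28 ± 0.083 (SE, limma adjusted p = 0.0731) with the construct. With DFO it gave 0.25 ± 0.083 (SE, limma adjusted p = 0.0941) in GFP cells and 0.28 ± 0.083 (SE, limma adjusted p = 0.0634) in PGC-1α cells. It passed no test on this probe set. The other Mtx1 probe set, tested among all probe sets, was called higher with the construct, at 0.73 (limma adjusted p = 0.0436) without DFO and 0.94 (limma adjusted p = 0.0133) with it. The probe set of Mtx2 can also detect related transcripts, as its suffix marks.

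In the intermembrane space, the small TIM chaperones held the largest change of any member with the construct: Timm8a1 without DFO and Timm10 with it. Timm8a1, which works with Timm13, read 913 and 1178 with GFP, 2473 and 2608 with PGC-1α, 772 and 769 with GFP plus DFO, and 2078 and 1961 with PGC-1α plus DFO. Timm9 and Timm10 form the chaperone that guards carrier proteins on the way to TIM22. Timm9 read 265 and 302 with GFP, 547 and 537 with PGC-1α, 156 and 153 with GFP plus DFO, and 527 and 526 with PGC-1α plus DFO. Timm10 read 1656 and 1582 with GFP, 3183 and 3206 with PGC-1α, 572 and 584 with GFP plus DFO, and 2095 and 1947 with PGC-1α plus DFO. All 3 genes were lowest with GFP plus DFO, as were other members, among them Mtx2, Timm17a, Timm23 and Timm44. In each of the 3 genes the construct arrays were above the GFP arrays both without and with DFO. The changes without DFO were 1.29 ± 0.14 (SE, limma adjusted p = 0.00848) for Timm8a1, 0.94 ± 0.094 (SE, limma adjusted p = 0.00714) for Timm9 and 0.98 ± 0.083 (SE, limma adjusted p = 0.00473) for Timm10. With DFO they were 1.39 ± 0.14 (SE, limma adjusted p = 0.0037), 1.77 ± 0.094 (SE, limma adjusted p = 0.000942) and 1.81 ± 0.083 (SE, limma adjusted p = 0.000776).

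DFO lowered Timm10 the most of the members in GFP cells, by 1.49 ± 0.083 (SE, limma adjusted p = 0.000432), and Timm9 fell by 0.88 ± 0.094 (SE, limma adjusted p = 0.00287). In PGC-1α cells Timm10 fell by 0.66 ± 0.083 (SE, limma adjusted p = 0.00432) and Timm9 gave -0.041 ± 0.094 (SE, limma adjusted p = 0.8). This Timm10 call was lost on the control RNA scale (limma adjusted p = 0.18). The difference between the changes in GFP and PGC-1α cells was itself tested: the interaction was 0.82 ± 0.12 (SE, limma adjusted p = 0.0634) for Timm10 and 0.83 ± 0.13 (SE, limma adjusted p = 0.0732) for Timm9, both above the threshold. No member passed the interaction test, against 0.231% and 0.324% of all genes called higher and lower. At an unadjusted limma p below 0.05 there were 8 of the 34 members, beside 3165 of all 18193 genes. With the trend and robust options of eBayes 6 members passed (Mtx2, Timm10, Timm17a, Timm22, Timm23 and Timm9), where 1467 of all genes passed. When genes at or below the median level of all 18193 were left out, 4 of the 32 members kept passed, where 1316 of all genes kept did. Both fits called more of all genes in the interaction than the main fit, which called 101.

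Timm8b was the only member called higher with DFO in the main fit, while 6 and 8 of the 34 had changes above 0 in GFP and PGC-1α cells. Its call in GFP cells was lost on the control RNA scale (limma adjusted p = 0.0594). Timm8b, a partner of the Timm13 chaperone, read 714 and 671 with GFP, 1414 and 1369 with PGC-1α, 972 and 1094 with GFP plus DFO, and 2224 and 2172 with PGC-1α plus DFO, so each DFO group was above its own group without DFO. It rose with DFO by 0.58 ± 0.095 (SE, limma adjusted p = 0.0111) in GFP cells and 0.66 ± 0.095 (SE, limma adjusted p = 0.00679) in PGC-1α cells, and with the construct by 1.01 ± 0.095 (SE, limma adjusted p = 0.00601) and 1.09 ± 0.095 (SE, limma adjusted p = 0.00259). The PGC-1α plus DFO arrays were the highest of all 8. Timm13 read 2589 and 2213 with GFP, 2675 and 2869 with PGC-1α, 1844 and 1976 with GFP plus DFO, and 2642 and 2721 with PGC-1α plus DFO, and passed only with the construct under DFO, at 0.49 ± 0.11 (SE, limma adjusted p = 0.0371). Timm8a2, a relative of Timm8a1, was dim, at 4.59 to 22.4 units, and passed no test.

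The oxidative folding pair of this compartment split. Chchd4, which traps cysteine-rich proteins by forming disulfide bonds, read 1110.2 and 1045 with GFP, 1638 and 1698 with PGC-1α, 713 and 764 with GFP plus DFO, and 1334 and 1224 with PGC-1α plus DFO. It rose with the construct by 0.63 ± 0.093 (SE, limma adjusted p = 0.019) without DFO and 0.79 ± 0.093 (SE, limma adjusted p = 0.00574) with it, and fell with DFO by 0.55 ± 0.093 (SE, limma adjusted p = 0.0123) in GFP cells and 0.38 ± 0.093 (SE, limma adjusted p = 0.0361) in PGC-1α cells. Gfer, the oxidase that recharges Chchd4, read 356 and 354 with GFP, 257 and 296 with PGC-1α, 319 and 283 with GFP plus DFO, and 297 and 224 with PGC-1α plus DFO. Its construct change was -0.36 ± 0.17 (SE, limma adjusted p = 0.233) without DFO and -0.22 ± 0.17 (SE, limma adjusted p = 0.434) with it, and it passed no test. Of the 8 genes of the intermembrane space, 5 rose with the construct without DFO and 6 with it, 3 fell and 1 rose with DFO in GFP cells, and 2 fell and 1 rose with DFO in PGC-1α cells.

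**Figure D2:**
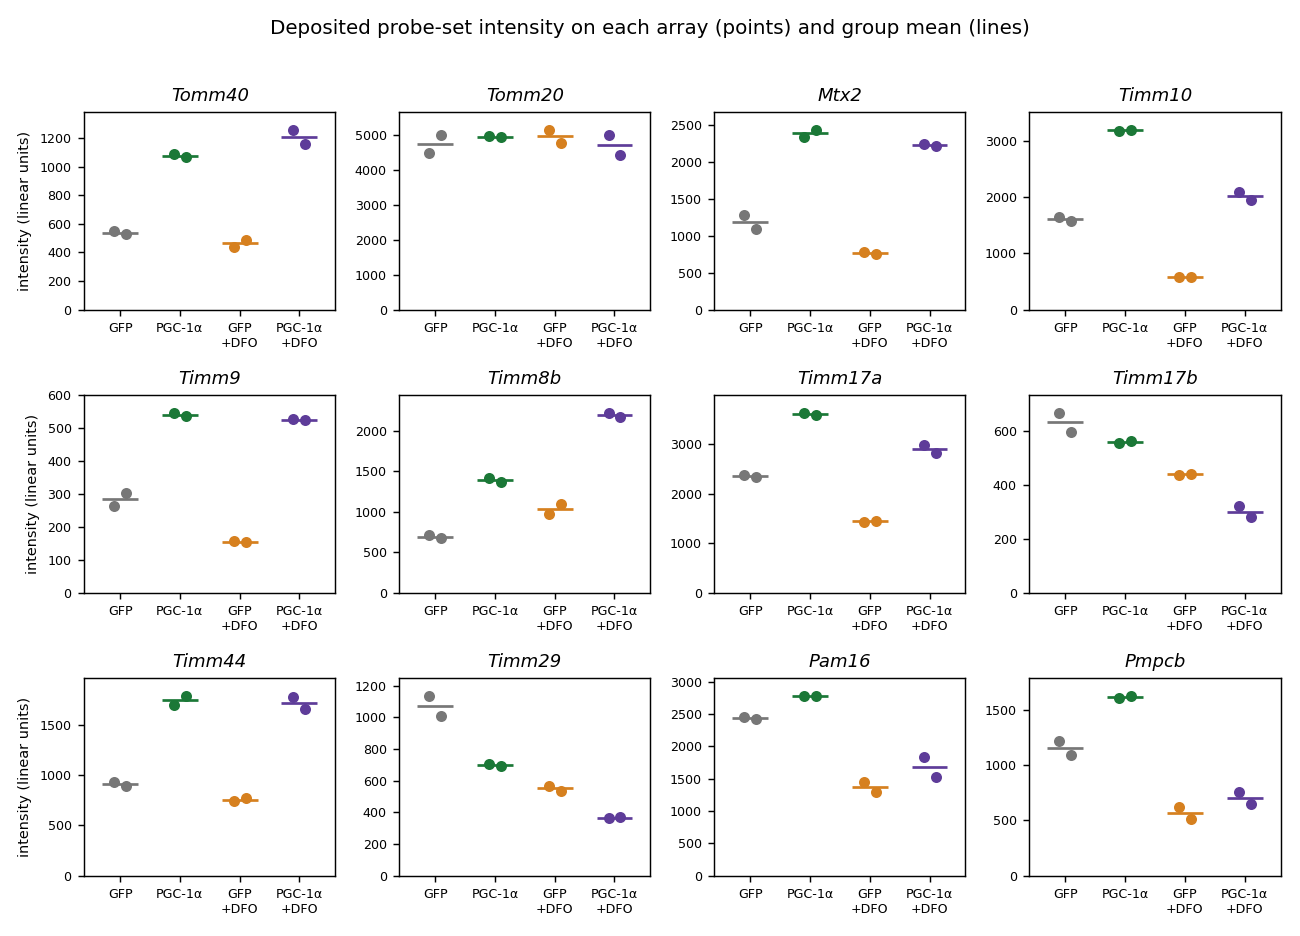
Deposited intensity (linear units, axis from 0) of 12 import genes in each group, with a point for each of the 2 arrays and a line for their mean. Timm10, Timm9, Tomm40, Mtx2, Timm17a, Timm44, Pam16 and Pmpcb are lowest with GFP plus DFO. Timm8b is highest with PGC-1α plus DFO at 2224 and 2172, and Tomm20 lies between 4407 and 5138 on all 8 arrays.

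In the TIM23 channel, the paired subunits Timm17a and Timm17b went apart with the construct under DFO. Both sit beside the pore subunit Timm23. Timm17a read 2380.1 and 2339 with GFP, 3635 and 3581 with PGC-1α, 1432 and 1455 with GFP plus DFO, and 2975 and 2826 with PGC-1α plus DFO and Timm17b read 668 and 597 with GFP, 556 and 564 with PGC-1α, 438 and 441 with GFP plus DFO, and 322 and 280.3 with PGC-1α plus DFO. Timm17a rose with the construct by 0.61 ± 0.077 (SE, limma adjusted p = 0.0128) without DFO and 1.01 ± 0.077 (SE, limma adjusted p = 0.00189) with it, while Timm17b gave -0.17 ± 0.11 (SE, limma adjusted p = 0.363) and fell by 0.55 ± 0.11 (SE, limma adjusted p = 0.0256). DFO lowered both in GFP cells, by 0.71 ± 0.077 (SE, limma adjusted p = 0.00299) for Timm17a and 0.52 ± 0.11 (SE, limma adjusted p = 0.0224) for Timm17b. In PGC-1α cells DFO gave -0.32 ± 0.077 (SE, limma adjusted p = 0.0373) and -0.90 ± 0.11 (SE, limma adjusted p = 0.00377). The Timm17a call in PGC-1α cells ended in 14 of 19 alternatives, and its sign turned to 0.040 on the control RNA scale, where it was not called. The probe set of Timm17b can detect related transcripts, and its other probe set, with no such mark, gave -0.39 for the construct with DFO and was not called. The Timm17b call for the construct with DFO ended in 9 of 19 alternatives. One of these was the control RNA scale (limma adjusted p = 0.84).

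Timm23, the pore, read 3898 and 3638 with GFP, 5473 and 5720.3 with PGC-1α, 2910.3 and 3019 with GFP plus DFO, and 5459 and 5342 with PGC-1α plus DFO. It rose by 0.57 ± 0.084 (SE, limma adjusted p = 0.0187) without DFO and 0.87 ± 0.084 (SE, limma adjusted p = 0.0034) with it, and fell with DFO in GFP cells by 0.35 ± 0.084 (SE, limma adjusted p = 0.0371). Timm50, the receptor that hands proteins from TOM to the channel, read 305 and 262 with GFP, 325 and 373 with PGC-1α, 202 and 197 with GFP plus DFO, and 330.3 and 322 with PGC-1α plus DFO. It rose with the construct under DFO by 0.71 ± 0.12 (SE, limma adjusted p = 0.0157), and fell with DFO in GFP cells by 0.50 ± 0.12 (SE, limma adjusted p = 0.0333). Timm21, which links TOM to TIM23, read 335 and 353 with GFP, 452 and 451 with PGC-1α, 382 and 359.8 with GFP plus DFO, and 390.3 and 371 with PGC-1α plus DFO. Its change without DFO was 0.39 ± 0.084 (SE, limma adjusted p = 0.0489), and with DFO 0.038 ± 0.084 (SE, limma adjusted p = 0.814). The call without DFO ended in 14 of 19 alternatives (limma adjusted p 0.00664 to 0.190), among them each array left out. Of the 5 channel genes, 3 rose with the construct without DFO, and with DFO 3 rose and 1 fell. DFO lowered 4 of the 5 in GFP cells and 2 in PGC-1α cells.

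In the PAM motor, the anchor and the exchange factor rose with the construct, and the regulator fell with DFO. Timm44 fixes the motor to the channel, and read 927 and 889 with GFP, 1696 and 1784 with PGC-1α, 738 and 769 with GFP plus DFO, and 1775 and 1651 with PGC-1α plus DFO. It rose by 0.94 ± 0.087 (SE, limma adjusted p = 0.00583) without DFO and 1.18 ± 0.087 (SE, limma adjusted p = 0.00169) with it, and was 1 of the 2 members, with Timm10, that kept the call without DFO when any single array was left out. DFO gave -0.27 ± 0.087 (SE, limma adjusted p = 0.0847) in GFP cells. Grpel1, which recharges the motor by nucleotide exchange, read 2102 and 1901 with GFP, 3256 and 3162 with PGC-1α, 1769 and 1762 with GFP plus DFO, and 3298 and 3178 with PGC-1α plus DFO. Its change with the construct was 0.68 ± 0.088 (SE, limma adjusted p = 0.0135) and 0.87 ± 0.088 (SE, limma adjusted p = 0.00378). Grpel2, its relative, gave -0.034 ± 0.096 (SE, limma adjusted p = 0.863) without DFO and rose by 0.41 ± 0.096 (SE, limma adjusted p = 0.0412) with it. Pam16, the regulator that holds the motor's J-protein in check, read 2450.1 and 2429 with GFP, 2779 and 2774 with PGC-1α, 1450.4 and 1289 with GFP plus DFO, and 1843 and 1523 with PGC-1α plus DFO. The construct gave 0.19 ± 0.12 (SE, limma adjusted p = 0.391) without DFO. DFO lowered Pam16 by 0.84 ± 0.12 (SE, limma adjusted p = 0.00766) in GFP cells and 0.73 ± 0.12 (SE, limma adjusted p = 0.0115) in PGC-1α cells, and both DFO groups lay below both groups without DFO. The call in PGC-1α cells was lost on the control RNA scale (limma adjusted p = 0.0936). Pam16 has a single probe set, which can also detect related transcripts.

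In the TIM22 complex, the channel and one small TIM rose while a structural subunit fell. Timm22, the channel, read 1129 and 1103 with GFP, 1559.9 and 1639.6 with PGC-1α, 876 and 847 with GFP plus DFO, and 1621 and 1534 with PGC-1α plus DFO, and rose by 0.52 ± 0.082 (SE, limma adjusted p = 0.0224) and 0.87 ± 0.082 (SE, limma adjusted p = 0.00318). It fell with DFO in GFP cells by 0.37 ± 0.082 (SE, limma adjusted p = 0.0276). Timm10b, the small TIM docked on it, read 1059.8 and 1058 with GFP, 1619 and 1583 with PGC-1α, 1003 and 984 with GFP plus DFO, and 1368 and 1234 with PGC-1α plus DFO, and rose by 0.60 ± 0.087 (SE, limma adjusted p = 0.0186) and 0.39 ± 0.087 (SE, limma adjusted p = 0.0369). Timm29 read 1135 and 1009.7 with GFP, 703 and 695 with PGC-1α, 568 and 535 with GFP plus DFO, and 364 and 372 with PGC-1α plus DFO, so it was lower with the construct and with DFO, and no arrays of different groups overlapped. Its changes were -0.62 ± 0.094 (SE, limma adjusted p = 0.0205) and -0.58 ± 0.094 (SE, limma adjusted p = 0.0143) with the construct, and -0.96 ± 0.094 (SE, limma adjusted p = 0.00214) and -0.93 ± 0.094 (SE, limma adjusted p = 0.00219) with DFO. It was the only member called lower in all 4 comparisons. On the control RNA scale both construct calls were lost (limma adjusted p = 0.19 without DFO and 0.686 with it) and both DFO calls were kept. Its other probe set was called lower in these comparisons except the construct with DFO (-0.42, limma adjusted p = 0.0531).

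The processing peptidase fell with DFO in both subunits. Pmpcb, the catalytic subunit, read 1218 and 1086 with GFP, 1604 and 1623 with PGC-1α, 625 and 514 with GFP plus DFO, and 755 and 649 with PGC-1α plus DFO. It fell with DFO by 1.02 ± 0.14 (SE, limma adjusted p = 0.00619) in GFP cells and 1.20 ± 0.14 (SE, limma adjusted p = 0.00351) in PGC-1α cells, and its construct changes, 0.49 ± 0.14 (SE, limma adjusted p = 0.0965) and 0.30 ± 0.14 (SE, limma adjusted p = 0.214), did not pass. This probe set can also detect related transcripts, and the other set of Pmpcb gave -1.28 and -1.37 with DFO and 0.68 and 0.59 with the construct, each called among all probe sets. Pmpca, the subunit that recognises presequences, read 1333 and 1260.3 with GFP, 996 and 1039.9 with PGC-1α, 859.6 and 832 with GFP plus DFO, and 571 and 499 with PGC-1α plus DFO. DFO lowered it by 0.62 ± 0.10 (SE, limma adjusted p = 0.0107) and 0.93 ± 0.10 (SE, limma adjusted p = 0.00273), and the construct with DFO by 0.66 ± 0.10 (SE, limma adjusted p = 0.012). On the control RNA scale 2 of these Pmpca calls were lost. They were DFO in GFP cells (limma adjusted p = 0.052) and the construct with DFO (limma adjusted p = 0.428). Outside the membrane complexes, Tomm34, a cytosolic co-chaperone that holds preproteins, read 409.9 and 412 with GFP, 297 and 308 with PGC-1α, 367 and 379 with GFP plus DFO, and 277 and 313 with PGC-1α plus DFO. It fell with the construct without DFO by 0.44 ± 0.094 (SE, limma adjusted p = 0.0476), a call that ended in 14 of 19 alternatives (limma adjusted p 0.00582 to 0.535), among them every other scaling of the arrays. Timmdc1, an assembly factor of respiratory complex I with a Timm name, gave 0.67 ± 0.18 (SE, limma adjusted p = 0.0839) without DFO and passed no test.

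**Figure D3:**
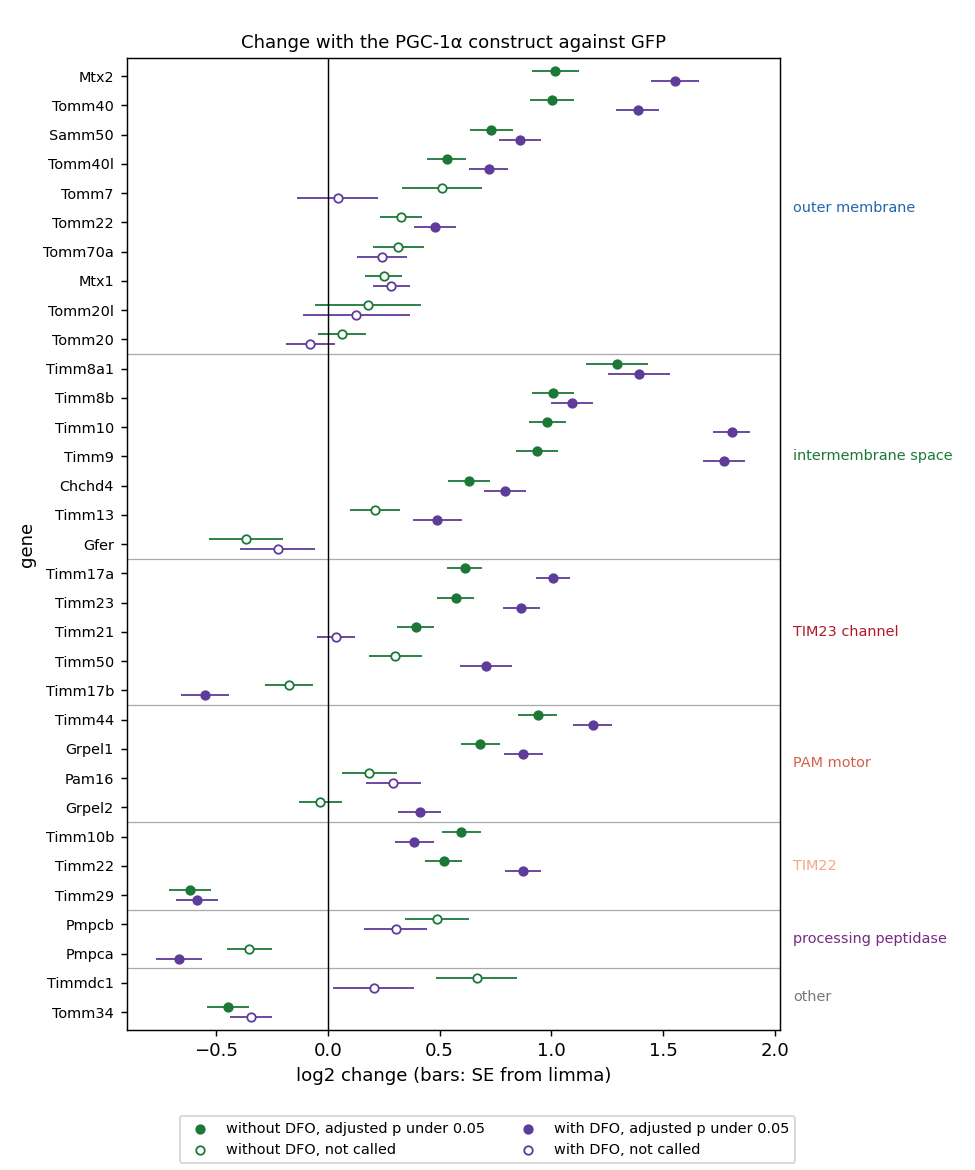
Log2 change with the PGC-1α construct against GFP for each import gene, without DFO (green) and with DFO (purple). Bars are the SE from limma, filled points are called, and Timm8a2 is left out for its wide SE. Of the genes drawn, 16 are filled to the right of 0 without DFO and 19 with it.

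The construct comparisons without and with DFO set different arrays against each other, but shared the spread that limma pools over all 8. Their calls are therefore not independent, and the overlap over all genes was not counted. Of the 16 members raised without DFO, 15 (93.75%) were also raised with it, which is 78.9% of those 19. Timm21 was called in the first and not the second, and Grpel2, Timm13, Timm50 and Tomm22 in the second and not the first. The difference was not called for any of these 5. Lowered members were Timm29 and Tomm34 without DFO and Timm29, Pmpca and Timm17b with it. The DFO comparisons also set different arrays against each other and shared that spread, again with no overlap counted over all genes. All 8 members lowered in PGC-1α cells were among the 13 lowered in GFP cells (61.5% of those 13). The other 5 were Mtx2, Timm22, Timm23, Timm50 and Timm9, and the difference was not called for any of them.

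**Figure D4:**
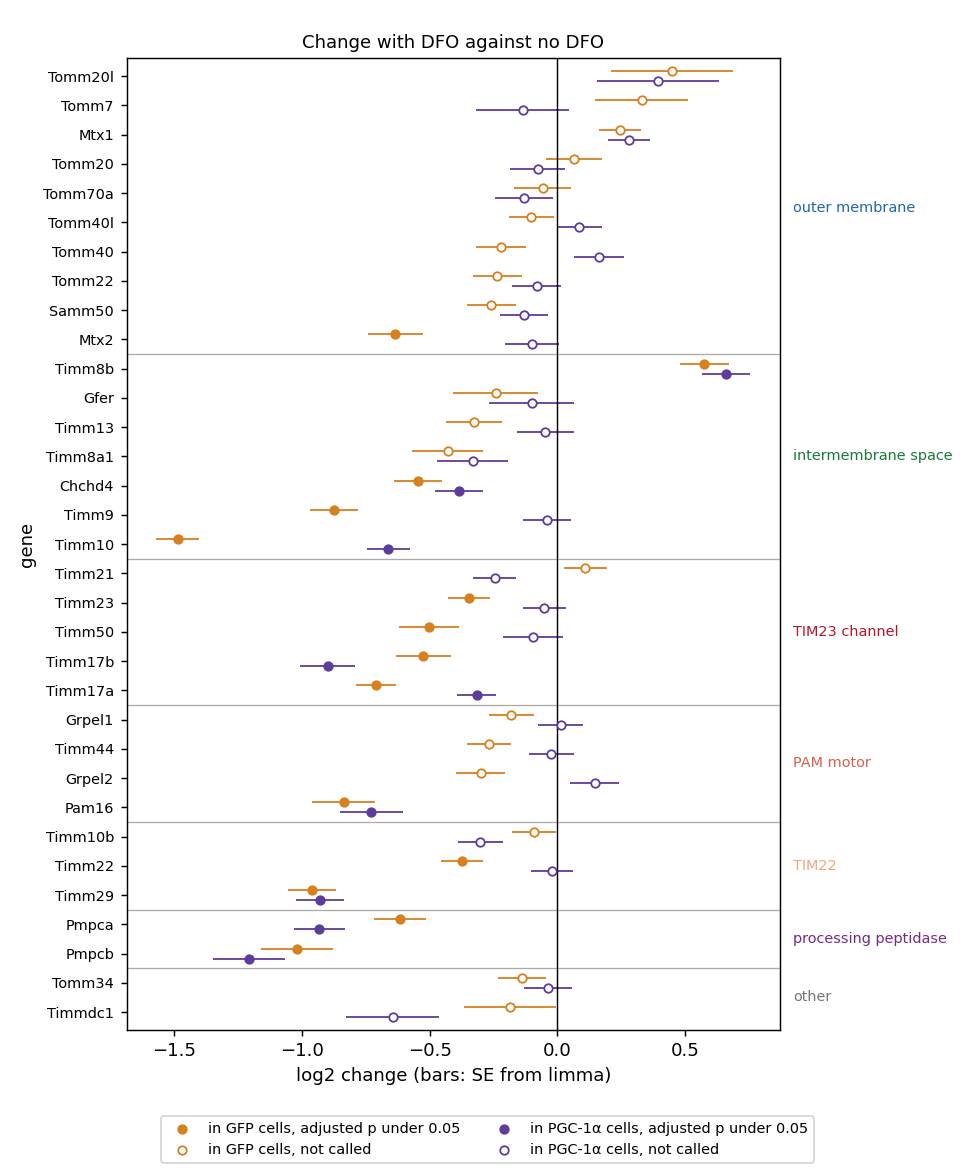
Log2 change with DFO against no DFO for each import gene, in GFP cells (orange) and in PGC-1α cells (purple). Bars are the SE from limma, filled points are called, and Timm8a2 is left out for its wide SE. Filled points lie left of 0 for 13 genes in GFP cells and 8 in PGC-1α cells, and right of 0 for Timm8b in both.

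Other probe sets of the called genes mostly ran the same way. For the construct, 8 called members without DFO had 12 further probe sets, all 12 with the same sign and 6 called, and 13 called members with DFO had 18, all 18 with the same sign and 8 called. For DFO, 7 called members in GFP cells had 8 further probe sets, 6 with the same sign and 4 of them called, and 4 called members in PGC-1α cells had 4, all with the same sign and called. Of the other 2, a dim set of Timm9 had the opposite sign and was not called, and a set of Timm50 at the lowest intensities showed a difference of 0. Beside Mtx1, Pmpcb and Tomm20, 4 members had a further probe set called where the one used was not: Timm50 with the construct without DFO (0.85), Timm44 with DFO in GFP cells (-0.48), and, on dim sets, Grpel2 (1.08) and Samm50 (-0.96) with DFO in PGC-1α cells.

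Genes that work beside the import machinery were also measured. Of 23, among them matrix chaperones, other presequence peptidases, outer membrane channels and cytosolic chaperones, 6 rose and 1 fell with the construct without DFO and 7 rose and 1 fell with it. DFO raised 2 and lowered 11 in GFP cells, and raised 1 and lowered 4 in PGC-1α cells, beside the shares of all genes given above for each comparison. Dnajc15, a J-protein of the import motor, read 1254 and 1491 with GFP, 3210.4 and 3165 with PGC-1α, 748 and 774 with GFP plus DFO, and 2592 and 2395 with PGC-1α plus DFO. It rose by 1.22 ± 0.11 (SE, limma adjusted p = 0.00583) without DFO and 1.71 ± 0.11 (SE, limma adjusted p = 0.00135) with it, and fell with DFO in GFP cells by 0.85 ± 0.11 (SE, limma adjusted p = 0.00553). Hspe1, the matrix co-chaperonin, read 3160.1 and 3258 with GFP, 3466 and 3661 with PGC-1α, 1281 and 1225 with GFP plus DFO, and 3116 and 2926 with PGC-1α plus DFO. It was lowest with GFP plus DFO, and its interaction of 1.12 ± 0.12 (SE, limma adjusted p = 0.0475) was the only one called among the 23. Hspa9, the chaperone that drives the motor, gave 0.32 ± 0.078 (SE, limma adjusted p = 0.0653) without DFO and 0.40 ± 0.078 (SE, limma adjusted p = 0.0251) with it. Vdac1, a metabolite channel of the outer membrane, went up with DFO in GFP cells by 0.93 ± 0.076 (SE, limma adjusted p = 0.00123), and Dnaja1, a cytosolic J-protein, went down with the construct by 0.97 ± 0.086 (SE, limma adjusted p = 0.00522) without DFO.

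The outer and inner membrane parts are set side by side in each comparison. With the construct and no DFO, 4 of 10 outer genes rose and 0 fell (median log2 change 0.42), and 7 of 12 inner genes rose and 1 fell (0.46). With the construct and DFO, 5 of 10 outer genes rose and 0 fell (0.38), and 8 of 12 inner genes rose and 2 fell (0.56). DFO in GFP cells lowered 1 of 10 outer genes, Mtx2 (median -0.080), and 7 of 12 inner genes (-0.36). DFO in PGC-1α cells lowered 0 of 10 outer genes by limma (-0.079) and 4 of 12 inner genes (-0.17). The 1 outer gene at an unadjusted limma p below 0.05 there was Mtx1, which was higher with DFO. The outer median minus the inner median was therefore -0.037, -0.18, 0.28 and 0.092, in that order. The first of these changed sign under 2 alternatives, quantile normalisation and leaving out dim genes. Without _x_at and _s_at probe sets it was -0.20 and the second -0.39, while the other two were 0.24 and 0.062. Without dim genes the second was -0.078. These are descriptions of named lists with no test of the lists.

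**Figure D5:**
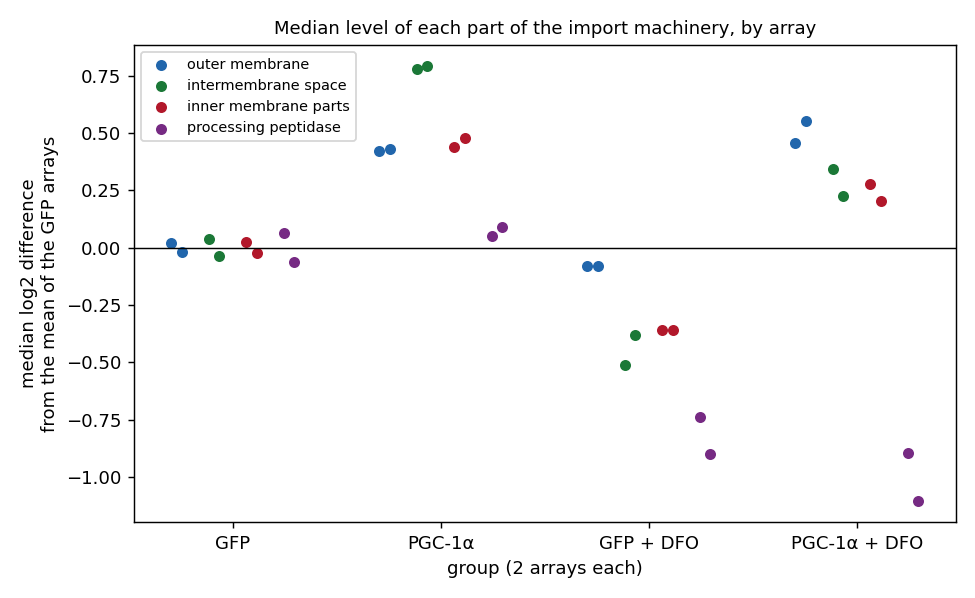
Median log2 difference from the mean of the GFP arrays, over the genes of each part, on each of the 8 arrays. With GFP plus DFO the outer membrane medians are -0.079 and -0.081, the inner membrane medians -0.36 and -0.36, and the processing peptidase medians -0.74 and -0.90.

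The number of arrays limits these calls. Arrays within a group are described by the submitters as biological duplicates, with no word on separate cultures, and an exact permutation test of 2 arrays against 2 cannot give a p below 0.333, so the calls rest on the spread that limma pools over the 4 groups. Fitted on only the 2 groups compared, the construct without DFO called 0 members by limma, with 21 higher and 4 lower at an unadjusted p below 0.05. That fit called 0 of all 18193 genes, where the main fit called 1770, so the 0 is not particular to the members. The share of all genes at an unadjusted p below 0.05 in that fit was not counted. Without DFO, the members called higher with the construct went from 16 to 8 and 7 without GFP replicate 1 and 2, to 2 and 5 without PGC-1α replicate 1 and 2, and to 7 and 7 without GFP plus DFO replicate 1 and 2. With DFO, 11 of the 19 were called higher without GFP plus DFO replicate 1. For DFO in GFP cells, the 13 called lower went to 8 without GFP replicate 1, and to 6 and 5 without GFP plus DFO replicate 1 and 2. For DFO in PGC-1α cells, the 8 called lower went to 5 without either PGC-1α replicate. Of the 18, 14, 22 and 9 calls for the construct without DFO, DFO in GFP cells, the construct with DFO and DFO in PGC-1α cells, 2, 5, 11 and 6 were kept whichever array was left out. Calls that ended in over 9 of the 19 alternatives were, beside Timm21, Tomm34 and Timm17a, Timm10b (11), Grpel2 (12) and Timm13 (10) for the construct with DFO, Timm23 (11) and Timm22 (10) for DFO in GFP cells, and Chchd4 (12) for DFO in PGC-1α cells. Each fit named above that left out an array also called fewer of all genes than the main fit. The lower counts are thus not particular to the members. The directions of the called genes did not turn in any of the fits that left out an array. A turn was unlikely for genes called on these same arrays.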

How the data were processed

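RNA of 8 samples was hybridised to Affymetrix Mouse 430 2.0 arrays, per the labels. The deposited intensity values, on a linear scale and computed by the authors, cover 45101 probe sets. The method and software behind them were not given in the sources used here. Values were taken to log2 with no pseudocount. The 34945 probe sets annotated to a single symbol gave 18193 genes, each read from its probe set of highest mean log2 intensity. limma 3.58.1 (R 4.3.3) fitted 1 mean per group over all 8 arrays with eBayes (4 residual and 1.3 prior degrees of freedom), and p-values were adjusted by Benjamini-Hochberg over 18193 genes, with calls below 0.05. The fit was tested on simulated data. Comparisons were the construct without and with DFO, DFO in GFP and PGC-1α cells, and their interaction. By the rule for named genes, the text gives each array's value for the central subunits and for up to 5 further members with the largest called change in each direction of a comparison, sets related genes side by side, and names up to 3 neighbouring genes outside the machinery per direction. Other members were added to account for each one. The members, gene lists and motifs were chosen with earlier results of these data known. Alternatives were other scalings (quantile, median, 27 control RNA probe sets), other probe set choices, no dim genes, adding 16, trend and robust, the compared groups only, a replicate block and each array left out. Motifs were searched in Python 3.11.15 on both strands, and figures drawn with matplotlib 3.10.9. The shorter NRF1 and YY1 letters were added after the data had been seen, so that they could be spelled out.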

Additional observations from a re-analysis of the deposited data

How the results depend on the processing

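With 2 arrays a group, these data limit the calls. No called member changed sign when an array was left out. These members were called for changes large against their spread on the same arrays, so this is no separate check of direction. The number of all genes called also differed between the fits that follow. Leaving out single arrays gave, for members called higher and lower, 2 to 15 and 0 to 2 (construct without DFO), 0 to 1 and 5 to 12 (DFO in GFP cells), 11 to 16 and 0 to 3 (construct with DFO), and 1 to 1 and 5 to 8 (DFO in PGC-1α cells), with 0 to 0 and 0 to 0 for the interaction. In the outer membrane the construct gave 0 to 4 and 2 to 5 higher without and with DFO, and DFO gave 0 to 1 and 0 to 0 lower in GFP and PGC-1α cells. The same ranges were 1 to 6, 5 to 6, 2 to 6 and 2 to 4 in the inner membrane, and 1 to 5, 4 to 6, 2 to 3 and 1 to 2 in the intermembrane space. The outer minus inner median ranged from -0.058 to -0.018 (construct without DFO), 0.25 to 0.32 (DFO in GFP cells), -0.19 to -0.13 (construct with DFO) and 0.056 to 0.17 (DFO in PGC-1α cells).

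Fitting only the groups compared gave 0 higher and 0 lower for the construct without DFO, 0 and 8 for DFO in GFP cells, 11 and 0 for the construct with DFO, and 0 and 4 for DFO in PGC-1α cells. By part, in that order, it gave 0, 0, 2 in the outer membrane, 0, 3, 5 and 2 in the inner membrane, and, for the first and last, 0 and 0 in the intermembrane space. Fewer arrays enter that fit. Over all genes it called 0, 3534, 861 and 1942 for these 4 comparisons, against 1770, 4409, 3446 and 4662 in the main fit.

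Control RNA scaling gave 0 lower for the construct without DFO and 0 with it, 0 higher and 6 lower for DFO in GFP cells, and 2 higher and 4 lower for DFO in PGC-1α cells. By part it gave 4 inner genes higher with the construct without DFO, 0 outer and 3 inner genes lower with DFO in GFP cells, and 2 inner and 0 intermembrane genes lower with DFO in PGC-1α cells. Timm17a with DFO in PGC-1α cells turned to 0.040. Members lower with the construct without DFO were 1 under quantile normalisation, median centring, the mean of probe sets, no _x_at or _s_at probe sets, and every probe set on its own.

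Leaving out dim genes gave 2 and 2 higher with DFO in GFP and PGC-1α cells, 4 higher in the interaction, 8 outer genes higher with the construct without DFO, and 3 outer and 5 intermembrane genes lower with DFO in GFP cells. The trend and robust options gave 2, 2, 6, 8, 3 and 5 for these, and 20 members lower with DFO in GFP cells. Over all genes, these fits called 1316 and 1467 in the interaction, against 101 in the main fit. Quantile normalisation and adding 16 each gave 1 higher in the interaction. The mean of probe sets gave 2 higher with DFO in PGC-1α cells, where it gave 1 outer and 1 intermembrane gene lower, and 4 inner genes lower with DFO in GFP cells. Every probe set on its own gave 1 intermembrane gene lower with DFO in PGC-1α cells, and leaving out _x_at and _s_at probe sets gave 0 outer genes lower with DFO in GFP cells. The outer minus inner median for the construct without DFO was 0.012 under quantile normalisation, 0.055 without dim genes and -0.20 without _x_at and _s_at probe sets. With DFO it was -0.078 and -0.39 under the latter 2.

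The replicate numbers are shared by the groups, and deviations of same-numbered arrays correlated from -0.11 to 0.22. With 2 arrays a group, these values cannot decide whether the numbers pair the arrays. With the replicate block, members lower with the construct without DFO were 1, inner genes lower with DFO in GFP cells 4, and intermembrane genes lower with DFO in PGC-1α cells 1. It ended 3 of 18, 3 of 14, 3 of 22 and 2 of 9 calls for the construct without DFO, DFO in GFP cells, the construct with DFO and DFO in PGC-1α cells.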
